A study of Mus musculus with 8 samples.

Results

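The genes described here are 39 members of the type I interferon response, read in RNA-seq libraries of microglia, the resident macrophages of the brain. Members were taken by gene symbol from a list. All 39 were found among the 55421 genes of the count table, and all 39 were among the 22089 genes that passed the filter on low counts and were tested. Microglia came from brains of 6-month-old C57BL/6 mice in 4 groups of 2 libraries. The cKO/AD group carried a conditional knockout of Calhm2, which encodes a calcium homeostasis modulator channel protein, together with Alzheimer's disease. The WT/AD group was wild type for Calhm2 and had the disease. The cKO group carried the conditional knockout without the disease, and the WT group had neither. The labels used here give no name for the disease model, no Cre driver and no number of animals behind a library. The p-values below rest on the difference between 2 libraries of a group, and part of that difference may be technical.

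Type I interferons are cytokines released after cells sense foreign or misplaced nucleic acids. They bind a receptor of the subunits IFNAR1 and IFNAR2, whose kinases activate STAT proteins, among them STAT2. STAT2 and IRF9 are subunits of the factor ISGF3, which binds interferon-stimulated response elements in the promoters of antiviral genes. Microglia both produce and respond to type I interferon, and a set of interferon-responsive microglia is known from aged brains and from amyloid models.

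Promoters show how the members differ in this element. A RefSeq promoter (build GRCm38.p6, 250 bases before to 50 after the gene start) was matched for 28 of the 39 members, as 32 promoters. For 19 of the 32, the bases just after the start lay in an annotated transcript of the gene. The start of the others is less certain, and so are matches and positions in their windows. The core of the response element, TTTC followed by any 2 bases and a second TTTC, was searched on both strands. It was present in 14 of the 32 promoters, of 13 members, and in 3.44% of the 32851 promoters in the table. The motif TTCNNNGAA, the core of STAT dimer sites, was present in promoters of 8 members and in 8.30% of the table; in Ifitm3 and Bst2 1 match of each kind overlapped. The 200 bases before the start are shown for 5 members. Ifit1, Ifit3 and Ifit3b are close family members that lie near each other on chromosome 19, and Trim30a and Ifnar2 were among the members that passed the test. Capitals mark the response element core, both TTTC copies and the bases between them.
Ifit1 promoter, chr19:34640689-34640888, + strand: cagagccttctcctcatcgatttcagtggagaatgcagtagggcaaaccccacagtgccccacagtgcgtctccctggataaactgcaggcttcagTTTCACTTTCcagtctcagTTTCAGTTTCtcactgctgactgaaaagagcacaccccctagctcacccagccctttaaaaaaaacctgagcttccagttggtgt
Ifit3 promoter, chr19:34583329-34583528, + strand: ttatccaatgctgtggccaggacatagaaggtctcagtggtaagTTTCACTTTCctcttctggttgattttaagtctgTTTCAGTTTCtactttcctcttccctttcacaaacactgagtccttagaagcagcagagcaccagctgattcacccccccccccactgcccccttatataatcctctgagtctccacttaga
Ifit3b promoter, chr19:34607757-34607956, + strand: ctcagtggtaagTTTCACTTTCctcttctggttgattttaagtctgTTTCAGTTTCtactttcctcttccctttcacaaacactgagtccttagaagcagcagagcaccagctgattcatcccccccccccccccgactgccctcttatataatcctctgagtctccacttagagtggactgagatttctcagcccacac
Trim30a promoter, first of 2, chr7:104465194-104465393, - strand: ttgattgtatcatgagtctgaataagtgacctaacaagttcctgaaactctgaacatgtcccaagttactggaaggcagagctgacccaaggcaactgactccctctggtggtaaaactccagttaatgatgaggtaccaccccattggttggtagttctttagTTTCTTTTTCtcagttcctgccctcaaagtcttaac
Ifnar2 promoter, chr16:91372583-91372782, + strand: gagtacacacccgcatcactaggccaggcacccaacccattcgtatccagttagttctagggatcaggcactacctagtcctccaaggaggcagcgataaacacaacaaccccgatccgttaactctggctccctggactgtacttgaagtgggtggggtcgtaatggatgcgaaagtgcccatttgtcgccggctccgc
The Ifit1, Ifit3 and Ifit3b stretches each held 2 matches, Trim30a held 1, and Ifnar2 held 0. The second RefSeq promoter of Trim30a (chr7:104446126-104446325, - strand) held 0 matches in its 200 bases before the start. Ifit3 and Ifit3b promoters shared an identical run of 119 bases, which includes both matches. Their transcripts are also alike: 51.2% of the 50-base words of Ifit3 occur in Ifit3b, so counts of this pair can be split between them and are uncertain. A match is a description of the letters in this window and not a measured binding site.

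Library totals were 18218165 to 25774587 counts. The targeted gene, Calhm2, had 44 and 35 counts in cKO/AD against 412 and 347 counts in WT/AD. Without the disease, cKO libraries had 96 and 107 counts and WT libraries 216 and 239 counts. It passed the test in cKO/AD against WT/AD (log2 fold change -2.89, SE 0.495, adjusted p = 0.0100) and not in cKO against WT (-1.24, SE 0.466, adjusted p = 0.673); the labels do not say which exons were deleted, so counts over the gene are a partial check. Replicate 1 of cKO/AD stood apart, with 18693 genes detected against 22088 in replicate 2 and 24342 to 25988 in the other 6 libraries, and 4.73% mitochondrial counts against 1.37% to 2.36%. The members shared this spread: 14 of 39 differed over 2-fold between the cKO/AD replicates, against 4 in WT/AD, 2 in cKO and 4 in WT. Over all tested genes the shares were 43.2% in cKO/AD, 18.2% in WT/AD, 19.6% in cKO and 22.2% in WT. All 10 microglia markers had counts in every library.

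**Figure D1:**
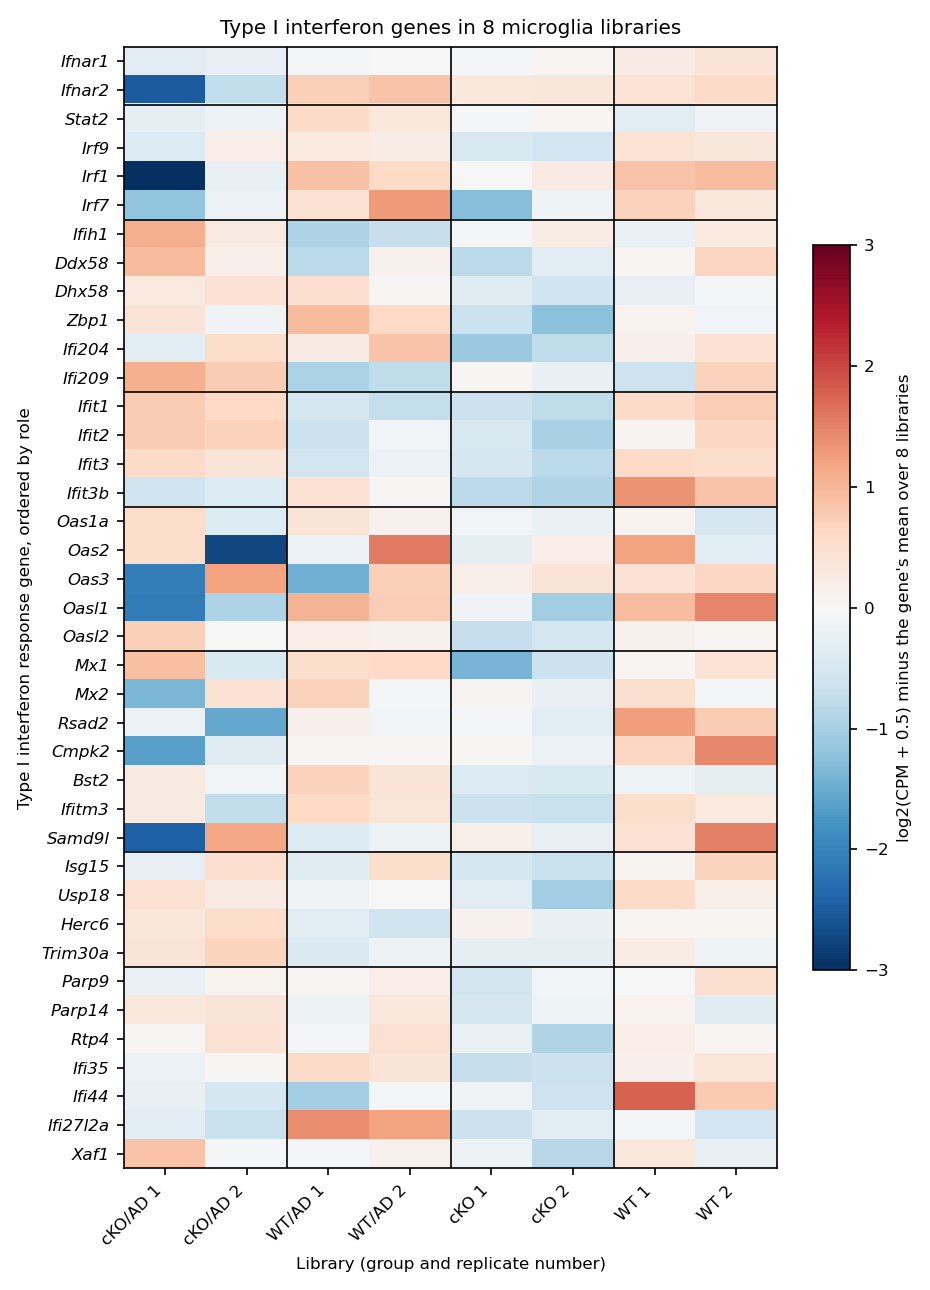
Colour shows log2(CPM + 0.5) of each of the 39 genes in each of the 8 libraries, minus the mean of the gene over the libraries, clipped at the ends of the scale; genes run down the page by role (receptor, transcription factors, sensors, then effectors) and lines divide roles and groups. Both cKO columns are blue for most genes, and the 2 cKO/AD columns differ from each other for 14 genes by over 2-fold.

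In microglia of diseased mice, 6 members differed between cKO/AD and WT/AD, in both directions. RNA of the cytosolic RNA sensor Ifih1, the RNA-binding effector Ifit1, the PYHIN family gene Ifi209 and the regulator Trim30a rose, while the receptor subunit Ifnar2 and the transcription factor Stat2 fell. These were the members past an adjusted p of 0.05 by edgeR in cKO/AD against WT/AD. In all, 4 of 39 rose, against 7.82% of all tested genes, and 2 of 39 fell, against 10.2%. The 6 calls are 15.4% of the members and the background in either direction was 18%, so the share of members called was close to that of all genes. The median log2 fold change was -0.18 over the members and -0.14 over all tested genes, with 18 members positive and 21 negative. Both cKO/AD libraries were above both WT/AD libraries in 9 members (23.1%, against 24.3% of all tested genes) and below in 15 (38.5%, against 35.1%). In bulk RNA, fewer cells of a type and less RNA per cell cannot be told apart.

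Ifih1 encodes MDA5, a sensor of long double-stranded RNA. Its level in CPM, counts scaled to library size, was 81.0 and 46.1 CPM in cKO/AD and 19.6 and 23.1 CPM in WT/AD (log2 fold change 1.58, SE 0.336, adjusted p = 0.0186). The cKO/AD libraries did not overlap those of WT/AD, although they differed from each other. Ifit1, which binds viral RNA that lacks a host cap, had 27.4 and 24.3 CPM in cKO/AD against 10.8 and 9.42 CPM in WT/AD (1.35, SE 0.305, adjusted p = 0.0222), with close replicates in both groups. Ifi209, of the family of DNA-binding interferon-inducible proteins, had 23.1 and 18.8 CPM in cKO/AD against 5.36 and 6.18 CPM in WT/AD (1.86, SE 0.510, adjusted p = 0.0413). Trim30a, a tripartite motif protein known to restrain Toll-like receptor signalling in mice, had 95.2 and 117.5 CPM in cKO/AD against 54.2 and 65.8 CPM in WT/AD (0.83, SE 0.223, adjusted p = 0.0393). All 4 were higher in both cKO/AD libraries than in either WT/AD library.

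Ifnar2, the ligand-binding receptor subunit, had 8.74 and 31.0 CPM in cKO/AD against 85.2 and 94.0 CPM in WT/AD (log2 fold change -2.17, SE 0.499, adjusted p = 0.0234). Both cKO/AD libraries were far below WT/AD, and replicate 1 was the lower of the pair. The log2 fold change was -1.50 without replicate 1 of cKO/AD and -3.37 without replicate 2. As for every called member, the call of Ifnar2 was lost without either WT/AD library. Stat2, a subunit of ISGF3, had 76.8 and 84.2 CPM in cKO/AD against 141.1 and 117.5 CPM in WT/AD (-0.68, SE 0.194, adjusted p = 0.0464), without overlap. The Stat2 call was lost in edgeR with DESeq2 size factors (adjusted p = 0.0569) and with no filter on low counts (adjusted p = 0.103). Ifnar2 kept its call in both of these. Just outside the threshold were the ISG15 ligase Herc6 (0.94, adjusted p = 0.0526) and Ifit2 (1.09, adjusted p = 0.0606).

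Base composition moved with these calls. The 4 members that rose had a transcript GC content of 39.3% to 43.3% and the 2 that fell 50.4% and 51.9%; over all tested genes the median was 43.5% for those that rose, 56.1% for those that fell and 48.5% overall. Spearman's rho between fold change and GC content was -0.57 over the 39 members and -0.46 over all tested genes, a description over genes that share the same 4 libraries. With GC content corrected, which put the median of all genes at 0.00 in place of -0.14, Ifnar2 was the 1 member of 39 past the threshold (-1.96, adjusted p = 0.0356). In that fit 6.39% of all tested genes were called. Ifih1 was then at 0.95 (adjusted p = 0.107), Ifit1 at 0.77 (adjusted p = 0.167), Ifi209 at 1.04 (adjusted p = 0.233), Trim30a at 0.10 (adjusted p = 0.838) and Stat2 at -0.14 (adjusted p = 0.695). Microglia markers summed to 15648 CPM in cKO/AD and 26390 CPM in WT/AD (3 of 10 fell), endothelial markers to 399.8 CPM in cKO/AD and 563.3 CPM in WT/AD (4 of 12 fell) and oligodendrocyte markers to 8929 CPM in cKO/AD and 5526 CPM in WT/AD (1 of 9 rose, 5 fell). Mural and fibroblast markers summed to 388.8 CPM in cKO/AD and 604.6 CPM in WT/AD (4 of 10 fell), neuron markers to 1796 CPM in cKO/AD and 1489 CPM in WT/AD (1 of 9 rose, 3 fell), and monocyte and border macrophage markers to 234.5 CPM in cKO/AD and 163.5 CPM in WT/AD (1 of 9 rose). Astrocyte markers were at 802.6 CPM in cKO/AD and 894.6 CPM in WT/AD (0 of 9 called), neutrophil markers at 1102 CPM in cKO/AD and 1138 CPM in WT/AD (1 of 9 fell), and T and NK cell markers at 3.19 CPM in cKO/AD and 6.24 CPM in WT/AD (0 of 5 called). Of all tested genes, 7.82% rose and 10.2% fell in the same fit, without the GC correction. The part of these cell types was not tested. Without either WT/AD library fewer calls were made, among the members and among all tested genes alike. The same held when any WT or cKO library was left out, although these groups are not compared here. Ifit1, Trim30a and Stat2 lost their calls in each of these fits. Without either cKO/AD library more were made, again among both. Such a fit leaves 1 library in that group.

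**Figure D2:**
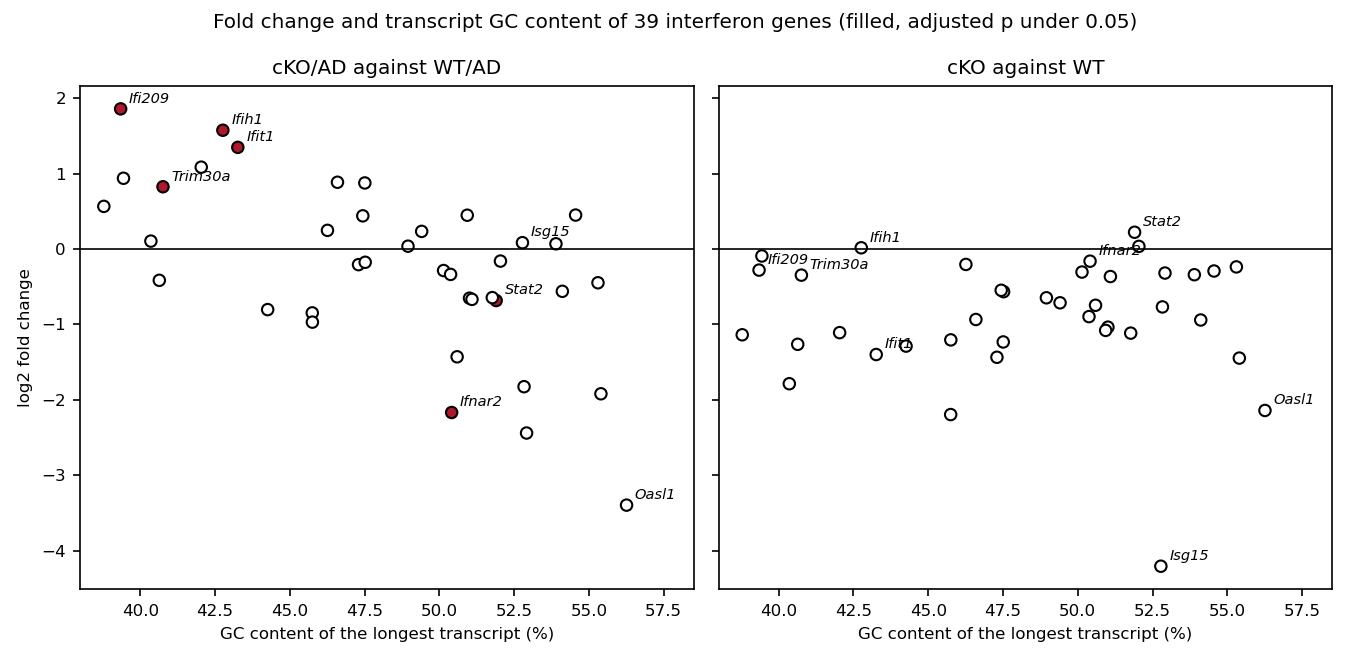
Points are the 39 members, with transcript GC content (%) on the x axis and log2 fold change on the y axis, for cKO/AD against WT/AD (left) and cKO against WT (right); filled points passed an adjusted p of 0.05. On the left, members with low GC lie higher (rho -0.57) and the 4 filled points above 0 lie at up to 43.3% GC, while on the right rho is 0.09 and no point is filled.

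Without the disease, cKO microglia had lower values than WT microglia for nearly the whole list, but no member passed the test. Log2 fold changes were negative for 36 of 39, with a median of -0.77 over the members and -0.02 over all tested genes. By edgeR 0 of 39 were called, as were 0% of all tested genes. At an unadjusted p under 0.05 there were 11 members lower and 0 higher, against 3.95% and 3.28% of all tested genes, and DESeq2 called 5 lower, with 1.21% of all tested genes called. In 29 of 39 (74.4%) both cKO libraries were below both WT libraries, against 26% of all tested genes. The 29 include Isg15, which had 1 and 0 counts in cKO. Stat2 was the 1 member with both cKO libraries above both WT libraries. The members were also lowest in cKO out of the 4 groups for 21 of 39, against 14.7% of all tested genes, and highest in cKO for 0. Summed over the list, the level was 840.1 ± 17.8 CPM in cKO and 1247 ± 35.3 CPM in WT (SD, n = 2 each).

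The 5 members with the smallest p were Ifit1, Ifi35, Irf9, Ifit3b and Ifit3, and DESeq2 called these 5. Ifit1 was at 9.96 and 9.13 CPM in cKO and 23.7 and 26.6 CPM in WT (log2 fold change -1.40, SE 0.306, adjusted p = 0.422). Ifi35, an induced leucine zipper protein, was at 29.4 and 30.1 CPM in cKO and 53.1 and 61.3 CPM in WT (-0.94, SE 0.215, adjusted p = 0.464). Irf9, the DNA-binding subunit of ISGF3, was at 98.1 and 89.7 CPM in cKO and 177.9 and 171.6 CPM in WT (-0.90, SE 0.228, adjusted p = 0.490). Replicates of these 3 genes lay close together and the groups stood well apart. Ifit3b was at 2.38 and 2.15 CPM in cKO and 12.2 and 8.56 CPM in WT (-2.19, SE 0.572, adjusted p = 0.496), and Ifit3 at 11.5 and 9.17 CPM in cKO and 24.8 and 23.9 CPM in WT (-1.23, SE 0.326, adjusted p = 0.511). The spread in this fit is shared by all 4 groups. With either cKO/AD library left out, 7 members were called lower, with 2.72% of all tested genes called without replicate 1 and 2.54% without replicate 2: these 5, the membrane fusion inhibitor Ifitm3 and the DNA sensor Ifi204.

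Microglia, endothelial, mural and fibroblast, astrocyte and neutrophil markers also had lower values in cKO than in WT. Summed microglia markers were at 21286 CPM in cKO and 34364 CPM in WT, and endothelial markers at 426.1 CPM in cKO and 1321 CPM in WT. Mural and fibroblast markers were at 437.7 CPM in cKO and 1316 CPM in WT, astrocyte markers at 693.1 CPM in cKO and 1268 CPM in WT, and neutrophil markers at 1447 CPM in cKO and 2967 CPM in WT. All 10 microglia, 12 endothelial, 10 tested mural, 9 astrocyte and 9 neutrophil markers had a negative log2 fold change, with medians of -0.49, -1.74, -0.96, -0.78 and -0.86. Of all tested genes, 51.3% were negative, with a median of -0.02. None of the markers was called by edgeR, as with all tested genes (0%). At an unadjusted p under 0.05 there were 3, 10, 6, 4 and 6 of them, against 3.95% of all tested genes lower. DESeq2 called 0, 7, 4, 1 and 1, with 1.21% of all tested genes called. Oligodendrocyte markers were at 6304 CPM in cKO and 4733 CPM in WT, and neuron markers at 1792 CPM in cKO and 1577 CPM in WT. Monocyte and border macrophage markers were at 215.8 CPM in cKO and 217.6 CPM in WT (4 of 9 positive, 5 negative, median -0.04), and T and NK cell markers at 5.41 CPM in cKO and 7.17 CPM in WT. Ifng, the type II interferon gene of T and NK cells, was at 0 in every library. The part of these cells in the interferon result was not tested.

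**Figure D3:**
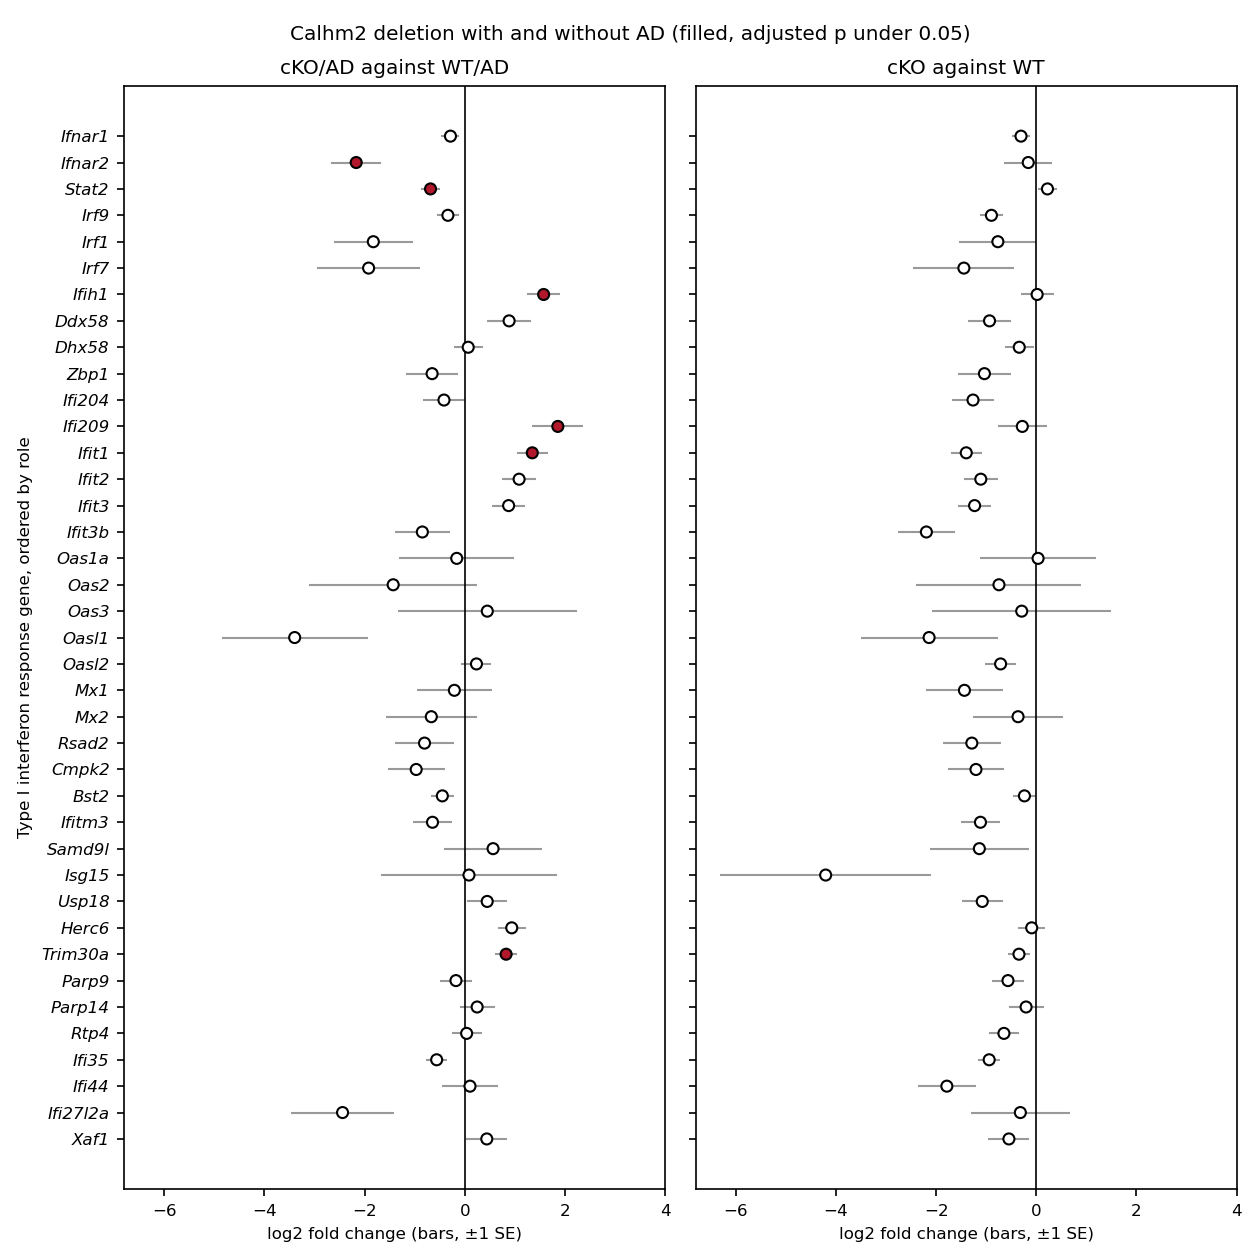
Log2 fold change (x axis, bars ±1 SE) of each of the 39 members by role, for cKO/AD against WT/AD (left) and cKO against WT (right); filled points passed an adjusted p of 0.05. On the left 6 points are filled and values lie on both sides of 0, and on the right 36 of 39 lie below 0 with none filled.

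The difference between the 2 deletion effects was tested as an interaction, positive where the log2 fold change of cKO/AD against WT/AD exceeds that of cKO against WT. No member passed by edgeR, as against 0.0272% of all tested genes; at an unadjusted p under 0.05 there were 10 positive and 2 negative members, against 9.64% and 12.3% of all genes. The interaction value was positive for 29 of 39, with a median of 0.56 against -0.16 over all genes. Its 5 smallest p-values belonged to Ifit1 (2.75, SE 0.432, adjusted p = 0.0537), Ifit2 (2.19, SE 0.476, adjusted p = 0.0675), Ifit3 (2.11, SE 0.459, adjusted p = 0.0675), Trim30a (1.17, SE 0.314, adjusted p = 0.0938) and Ifih1 (1.56, SE 0.468, adjusted p = 0.118). DESeq2 called 7 positive and 2 negative, among them these 5, with 12.4% of all tested genes called. Spearman's rho between the interaction value and GC content was -0.66 over the members and -0.37 over all tested genes. With GC content corrected the value of Trim30a was 0.58 (adjusted p = 0.414), and the adjusted p was 0.104 for Ifit1, 0.147 for Ifit2, 0.126 for Ifit3 and 0.288 for Ifih1. An effect called with the disease and not without it is thus not shown to differ between the 2 settings by the edgeR test.

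The pattern behind the interaction was followed library by library. For 6 members, Ifit1, Ifit2, Ifit3, Usp18, Ddx58 and Trim30a, both cKO libraries were below both WT libraries while both cKO/AD libraries were above both WT/AD libraries; this is 15.4% of the members and 4.83% of all tested genes. The opposite held for Stat2 alone, 2.56% of the members and 5.31% of all genes. Another 13 were lower in both settings, 33.3% against 11.6%, and 0 were higher in both, against 8.48%. The 13 were Ifit3b, Irf1, Irf7, Irf9, Oasl1, Rsad2, Bst2, Ifi35, Zbp1, Ifitm3, Ifnar1, Ifnar2 and Cmpk2. Oasl1 had 0 and 14 counts in cKO/AD, so its level there cannot be read. For Bst2 and Ifi35 the log2 fold change in cKO/AD against WT/AD turned positive with GC content corrected (0.84 and 0.39).

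**Figure D4:**
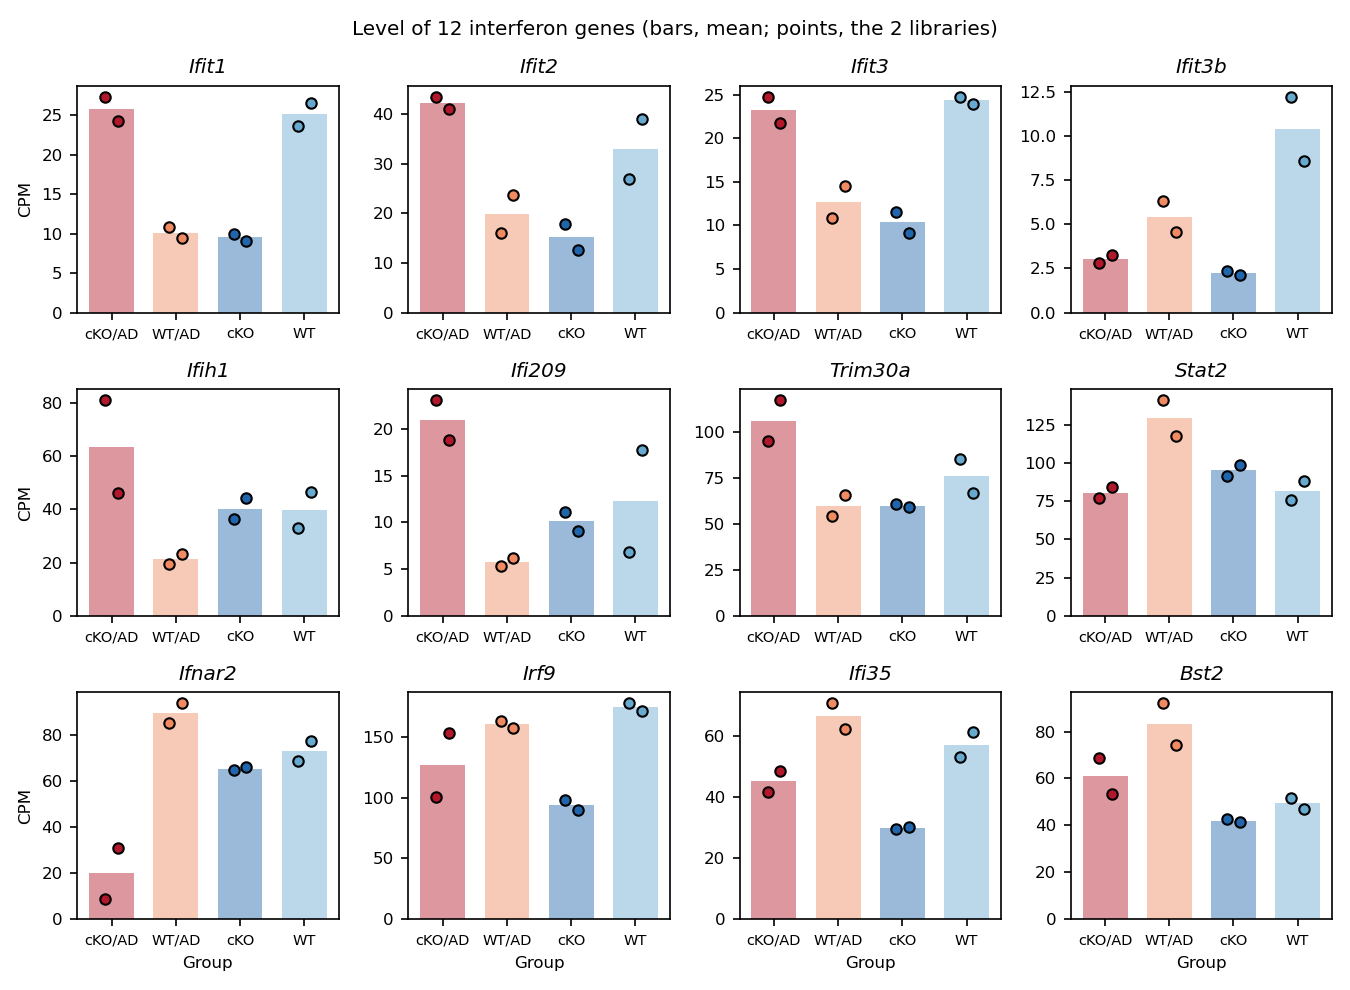
CPM (y axis, from 0) of 12 members in the 4 groups; bars are means and points the 2 libraries. Ifit1, Ifit2 and Ifit3 are high in cKO/AD and WT and low in WT/AD and cKO, Ifit3b is highest in WT, and Ifnar2 is lowest in cKO/AD.

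With the disease alone, values of the list lay in both directions. In WT/AD against WT 0 of 39 were called by edgeR, against 0.0453% of all tested genes, with 17 positive and 22 negative values and a median of -0.14 (0.00 over all genes). At an unadjusted p under 0.05 there were 2 higher and 4 lower, against 4.04% and 4.95% of all genes, and DESeq2 called 1 each way, with 2.40% of all genes called. Both WT/AD libraries were above both WT libraries in 25.6% of members, against 26.5% of all genes, and below in 38.5%, against 25.9%. Ifit1 had 10.8 and 9.42 CPM in WT/AD against 23.7 and 26.6 CPM in WT (log2 fold change -1.31, SE 0.304, adjusted p = 0.280). Ifi44, an induced gene of unclear function, had 3.46 and 7.32 CPM in WT/AD against 27.2 and 13.4 CPM in WT (-1.91, SE 0.584, adjusted p = 0.389), and Ifit3 had 10.8 and 14.5 CPM in WT/AD against 24.8 and 23.9 CPM in WT (-0.94, SE 0.324, adjusted p = 0.463). Stat2 had values in the other direction, with 141.1 and 117.5 CPM in WT/AD and 75.4 and 87.9 CPM in WT (0.66, SE 0.194, adjusted p = 0.381). Bst2, the tetherin that holds budding virus at the membrane, had 92.1 and 74.4 CPM in WT/AD and 51.7 and 47.0 CPM in WT (0.75, SE 0.226, adjusted p = 0.387). None of these 5 overlapped between the groups. Spearman's rho between fold change and GC content was 0.61 over the members and 0.31 over all tested genes. With GC content corrected, the log2 fold change was -1.05 for Ifit1, -1.65 for Ifi44 and -0.80 for Ifit3. It was 0.59 for Stat2 and 0.48 for Bst2, and no member was called. With either cKO/AD library left out, 2 were called higher (Stat2 and Bst2) and 4 lower (Ifit1, Ifi44, Ifih1 and Samd9l), with 5.22% of all genes called without replicate 1 and 4.85% without replicate 2.

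Among knockout microglia, values were higher with the disease for most of the list, again without a call. In cKO/AD against cKO, 28 of 39 were positive with a median of 0.53, against -0.13 over all genes, and 0 were called by edgeR against 0.217% of all genes. At an unadjusted p under 0.05 there were 12 higher and 1 lower, against 9.53% and 13.9% of all genes, and DESeq2 called 7 higher and 1 lower, with 14.8% of all genes called. Both cKO/AD libraries were above both cKO libraries in 56.4% of members, against 20.3% of all genes, and below in 12.8%, against 31.1%. Ifit1 had 27.4 and 24.3 CPM in cKO/AD and 9.96 and 9.13 CPM in cKO (log2 fold change 1.44, SE 0.306, adjusted p = 0.0622). Ifit2 had 43.5 and 41.1 CPM in cKO/AD and 17.9 and 12.7 CPM in cKO (1.47, SE 0.340, adjusted p = 0.0698). Trim30a (0.82, adjusted p = 0.0864), Ifit3 (1.17, adjusted p = 0.0915) and Ifnar2 (-1.72, adjusted p = 0.0961) followed. This comparison shares its cKO/AD libraries with cKO/AD against WT/AD and its cKO libraries with cKO against WT. Without cKO/AD replicate 1, 5 were called higher and 2 lower, with 8.06% of all genes called; without replicate 2, 13 were higher and 6 lower, with 34.6% of all genes called.

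By role, the receptor subunits and transcription factors mostly had lower values in the knockout. In cKO/AD against WT/AD 6 of 6 did, against 53.8% of the 39 members and 53.5% of all tested genes. Of these, Ifnar2 and Stat2 passed, and 10.2% of all tested genes were called lower. In cKO against WT 5 of 6 did, all but Stat2, against 92.3% of the members and 51.3% of all tested genes. This is not above the share of the whole list, and none passed. Ifnar1 was at 60.7 and 65.0 CPM in cKO/AD and 76.1 and 77.1 CPM in WT/AD, and at 75.7 and 80.3 CPM in cKO and 92.0 and 100.8 CPM in WT. The groups did not overlap in either setting, and neither difference passed. Irf1, an activator of interferon target genes, was at 2.84 and 27.7 CPM in cKO/AD and 59.2 and 49.3 CPM in WT/AD, and at 32.3 and 38.2 CPM in cKO and 58.6 and 61.4 CPM in WT; replicate 1 of cKO/AD was the lowest of all. Irf7, which amplifies interferon production, was at 0.511 and 1.52 CPM in cKO/AD and 2.66 and 5.07 CPM in WT/AD, and at 0.446 and 1.58 CPM in cKO and 3.18 and 2.37 CPM in WT. Irf9 was at 100.4 and 153.7 CPM in cKO/AD and 163.6 and 157.3 CPM in WT/AD, and replicate 1 of cKO/AD was the lowest of the 4.

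Among the sensors and Ifit genes, several had values that lay in opposite directions in the 2 settings. The RNA sensor Ddx58 (RIG-I) was at 57.9 and 32.7 CPM in cKO/AD and 16.7 and 32.3 CPM in WT/AD, and at 17.0 and 23.3 CPM in cKO and 30.6 and 46.5 CPM in WT. In the diseased groups the margin between the nearest libraries was thin. Its regulator Dhx58 (LGP2) was at 28.8 and 31.4 CPM in cKO/AD and 33.5 and 23.9 CPM in WT/AD, which overlap. All 6 sensors had higher values in cKO/AD than in cKO without overlap, as did 56.4% of the 39 members and 20.3% of all tested genes. The same held for all 4 Ifit genes. Ifit2 was at 43.5 and 41.1 CPM in cKO/AD and 16.1 and 23.8 CPM in WT/AD, and at 17.9 and 12.7 CPM in cKO and 26.9 and 39.1 CPM in WT. Ifit3 was at 24.8 and 21.8 CPM in cKO/AD and 10.8 and 14.5 CPM in WT/AD. Ifit3b, whose promoter carries the same pair of motifs, was at 2.78 and 3.26 CPM in cKO/AD and 6.32 and 4.55 CPM in WT/AD. Thus Ifit3 had higher and Ifit3b lower values in cKO/AD, neither past the threshold (adjusted p = 0.100 and 0.316).

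Several effectors had few counts or differed widely between replicates. Isg15, the ubiquitin-like modifier, had 3 and 14 counts in cKO/AD, 3 and 16 in WT/AD, 1 and 0 in cKO, and 7 and 15 in WT, too few for a fold change. Usp18, the protease that removes ISG15 and dampens receptor signalling, was at 17.4 and 15.2 CPM in cKO/AD and 11.6 and 12.3 CPM in WT/AD, and at 9.86 and 5.79 CPM in cKO and 18.9 and 14.2 CPM in WT. Of the OAS family, which makes the oligoadenylates that activate RNase L, Oas3 had 0 and 98 counts and Oas2 77 and 0 counts in the 2 cKO/AD libraries, so that no level can be read for that group. Oasl2 was the OAS member with no overlap between cKO (16.5 and 18.3 CPM) and WT (29.4 and 27.8 CPM) and an unadjusted p under 0.05. Rsad2 (viperin), an antiviral radical enzyme, was at 6.81 and 2.32 CPM in cKO/AD and 8.62 and 7.29 CPM in WT/AD, and at 7.38 and 5.97 CPM in cKO and 19.1 and 13.5 CPM in WT. The dynamin-like GTPase Mx1 was at 7.04 and 2.45 CPM in cKO/AD and 5.32 and 5.62 CPM in WT/AD, and at 1.04 and 2.11 CPM in cKO and 3.71 and 4.83 CPM in WT. Samd9l had 29 and 575 counts in the 2 cKO/AD libraries. Per kilobase of transcript, Bst2 had the highest mean of the members, with 77.1 CPM per kb in cKO/AD, 105.1 in WT/AD, 52.9 in cKO and 62.4 in WT.

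Other genes of the pathway were read from a list of 84 tested genes outside the 39. In cKO/AD against WT/AD 5 rose and 12 fell, against 7.82% and 10.2% of all tested genes, and 6 of these 17 were called in the same direction with GC content corrected. Among signalling genes, Pias1, an inhibitor of STAT DNA binding, rose (512.7 ± 70.5 CPM in cKO/AD and 151.2 ± 25.9 CPM in WT/AD, log2 fold change 1.76, adjusted p = 0.00641). The transcription factors Irf3 (-1.68, adjusted p = 0.00869), Irf5 (-2.14, adjusted p = 0.0120) and Irf8 (-1.89, adjusted p = 0.0173) fell, as did the feedback inhibitor Socs3 (-2.57, adjusted p = 0.00944). Among sensors and adaptors, the kinase Tbk1, which activates IRF3, rose (240.6 ± 3.63 CPM in cKO/AD and 96.9 ± 10.7 CPM in WT/AD, 1.31, adjusted p = 0.00689), and the RNA-editing enzyme Adar fell (-1.97, adjusted p = 0.0136). The related kinase Ikbke had 0 counts in cKO/AD and a mean of 1.71 CPM in WT/AD. A floor of 3 counts over the group would put cKO/AD 22.8-fold lower. That floor covers counting error only and not the spread between the cKO/AD libraries, so it is not a bound on the fold. Ikbke was picked after its values were seen. Of the other induced genes, the guanylate-binding protein gene Gbp7 (1.46, adjusted p = 0.0236) and Ms4a4c (1.83, adjusted p = 0.0330), which is also a marker of monocytes, rose, and Dtx3l, the partner of Parp9, fell (-1.28, adjusted p = 0.0287). With GC content corrected, Pias1, Tbk1, Irf5, Irf8 and Dtx3l were called and Irf3, Socs3, Adar, Gbp7, Ms4a4c and Ikbke were not. None of the 84 was called by edgeR in cKO against WT, nor was any of all tested genes (0%). At an unadjusted p under 0.05, 15 were lower and 0 higher, against 3.95% and 3.28% of all tested genes. DESeq2 called 4 lower, with 1.21% of all tested genes called. In cKO against WT, 48 of the 51 other induced genes were negative, against 51.3% of all tested genes. Their median was -0.56, against -0.02 over all tested genes.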

How the data were processed

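Microglial RNA was sequenced from Illumina TruSeq libraries, per the labels' protocols. The authors deposited 1 table of raw read counts per gene, with 55421 genes and 8 libraries and 0 columns left unused. Per the submitters' processing notes the genome build was mm9. Of the 55421 gene IDs, 54587 matched GENCODE M21, an annotation of GRCm38, with their version, so the build used for counting is unclear. The sources used here do not name the aligner, the counter or its strand setting. Without a stated strand setting, overlapping genes such as Ifi35 and Gm11626 (16.8% of Ifi35 exon bases) or Parp9 and Dtx3l (9.40%) cannot be told apart in part.

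Tests were run in edgeR 4.0.16 (R 4.3.3). The filter filterByExpr, applied by group, left 22089 genes, and libraries were scaled by TMM (factors 0.873 to 1.11). A group means model over all 8 libraries, with 4 residual degrees of freedom, was fitted with glmQLFit and tested two-sided with glmQLFTest. Adjusted p-values are Benjamini-Hochberg over all tested genes of a comparison, with a threshold of 0.05. The SE of a log2 fold change is its size over the square root of F. Levels are CPM over TMM-scaled library sizes; the floor of 3 counts lies between 0.119 and 0.170 CPM, and covers counting error only. The same steps were tested on simulated counts.

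Alternatives were DESeq2 1.42.0, its size factors in edgeR, no filter, the 2 groups alone, a replicate block, a loess correction (span 0.4) for GC content of the longest GENCODE M21 transcript, both together, and leaving out each library. GC values were available for all 39 members.

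The 39 members, the other lists and the rule on which genes to name were chosen with earlier results of these data known. The rule gives levels for any member, and a fold change with adjusted p for members past the threshold or, where fewer than 5 pass, the 5 smallest raw p. Of other pathway genes it takes at most 10 past the threshold. Values just outside the threshold, and the 12 genes plotted by group, were picked after values were seen.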

Additional observations from a re-analysis of the deposited data

How the results depend on the processing

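In 15 alternatives to the edgeR fit, no fold change of a named member reversed. Of their values, 271 kept their side of the threshold, 48 lost a call and 65 gained one. Only the members called in cKO/AD against WT/AD had a call to lose. Of 15 alternatives, Ifnar2 kept its call in 12, Ifih1 in 10, Ifi209 in 7, Ifit1 in 6, Trim30a in 5 and Stat2 in 2. In cKO/AD against WT/AD, 4 members higher, 2 lower and 3980 genes called became 7, 4 and 6392 with DESeq2, 2, 1 and 3599 with the replicate block, 0, 1 and 1411 with GC content corrected, 0, 1 and 1151 with both, and 0, 0 and 0 for the 2 groups alone; 1 member was lower with DESeq2 size factors. In cKO against WT, 0 genes called became 2 with DESeq2 size factors, 268 with DESeq2 (5 members lower), 142 with no filter, 122 for the groups alone and 1 with GC content corrected. In WT/AD against WT, 10 genes became 531 with DESeq2 (1 member each way), 278 with no filter, 1370 for the groups alone (2 members each way), 3 with the block and 16 with GC content corrected. In cKO/AD against cKO, 48 genes became 3279 with DESeq2 (7 members higher, 1 lower), 3057 with no filter (4 higher, 2 lower), 0 for the groups alone, 22 with the block, 25 with GC content corrected and 17 with both. For the interaction, 6 genes became 20 with DESeq2 size factors, 2747 with DESeq2 (7 members higher, 2 lower), 2670 with no filter (5 higher, 1 lower), and 1 with the block, alone or with GC content corrected; it could not be fitted in 2 groups alone. Leaving out 1 library gave, for members higher, members lower and all genes called, 0 to 8, 0 to 11 and 2 to 10192 in cKO/AD against WT/AD, 0 to 0, 0 to 7 and 0 to 678 in cKO against WT, 0 to 2, 0 to 4 and 1 to 1304 in WT/AD against WT, 0 to 13, 0 to 6 and 0 to 8570 in cKO/AD against cKO, and 0 to 11, 0 to 5 and 1 to 7884 for the interaction. The lone sample of a group is then assumed to vary like the other groups. The cause of these shifts was not tested. Same-numbered libraries did not deviate together (r -0.033 to 0.061), so the replicate block shares only a number, and it kept Ifit1, Ifih1 and Ifnar2 in cKO/AD against WT/AD. With 2 libraries a group, and 3 or fewer counts in some, levels of Isg15, Oas2, Oas3 and Oasl1 cannot be read in every group.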
